A study of Mus musculus with 7 samples.

Results

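Cxcl2, Cxcl3, Cxcl5 and Cxcl10 are genes of the CXC chemokine family, secreted proteins that direct the migration of white blood cells. They were 4 of the 13287 named genes on arrays of mouse satellite cells, the stem cells of skeletal muscle, and each was measured by 1 probe set annotated to that gene alone. They were chosen because the first 3 had lower values, and Cxcl10 higher values, in cells taken after death than in cells of living animals, so that contrast is described here without a test, and the change between the post-mortem days is the comparison tested. The cells came from Tg:Pax7-nGFP mice, in which a transgene places a nuclear GFP under the control of the satellite cell gene Pax7, and they were sorted by FACS straight into lysis buffer. RNA was amplified with Ovation Pico V2 and hybridised to GeneChip Mouse Gene 1.0 ST arrays, 1 array per sample. All groups carried the transgene: 2 arrays of living mice (living 1 and 2), 2 arrays of mice dead for 2 days (D2PM 1 and 2) and 3 arrays of mice dead for 4 days (D4PM 1 to 3). Labels and methods gave 24 to 26 months as the age of the living mice, whereas the title of the series called its animals young adults and its design text counted 24 to 26 in weeks. The study describes the post-mortem mice as young, so by the labels death and age differed together between living and post-mortem cells and cannot be told apart. The labels do not say whether replicate arrays were made from different animals. The p-values therefore measure only the spread between these arrays, which may be technical.

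CXC chemokines carry a pair of cysteines separated by another residue near the amino end. Cxcl2, Cxcl3 and Cxcl5 belong to the subgroup with an ELR motif before these cysteines, which attracts neutrophils through the receptor Cxcr2 and is transcribed through NF-kB after signals such as IL-1 and TNF. Cxcl10 lacks that motif, attracts activated T cells and NK cells through Cxcr3, and is transcribed through interferon-regulated factors together with NF-kB. Messengers of many chemokines are short-lived and carry AU-rich elements, so their level depends on decay as well as on transcription. In muscle, satellite cells and their progeny secrete chemokines after injury.

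All 4 genes lie on chromosome 5, in 2 groups of chemokine genes. The stretches before the RefSeq start of transcription are shown for the members with a RefSeq promoter window (3 of 4, not Cxcl5) and for Cxcl1, the neighbour of Cxcl2, because each of the windows holds an NF-kB motif, both for Cxcl2 and Cxcl3, which were lower after death, and for Cxcl10, which was higher. The build was GRCm38.p6. The windows were chr5:90903779-90903898 on the plus strand for Cxcl2, chr5:90785981-90786100 on the plus strand for Cxcl3, chr5:90891125-90891244 on the plus strand for Cxcl1 and chr5:92348890-92349109 on the minus strand for Cxcl10. Each is written 5′ to 3′ and ends at the base before the start. Capitals mark the NF-kB motif of 10 letters and, in Cxcl10, also the interferon-stimulated response element (ISRE, searched as GAAA, any 2 bases and GAAA) and the AP-1 site (TGANTCA).
Cxcl2: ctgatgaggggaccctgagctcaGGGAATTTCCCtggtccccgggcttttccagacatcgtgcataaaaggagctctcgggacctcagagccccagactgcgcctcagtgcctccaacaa
Cxcl3: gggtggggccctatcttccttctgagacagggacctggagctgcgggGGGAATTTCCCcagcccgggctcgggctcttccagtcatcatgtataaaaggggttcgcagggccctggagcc
Cxcl1: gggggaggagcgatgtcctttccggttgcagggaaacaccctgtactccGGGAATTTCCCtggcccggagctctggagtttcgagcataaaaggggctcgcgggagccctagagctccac
Cxcl10: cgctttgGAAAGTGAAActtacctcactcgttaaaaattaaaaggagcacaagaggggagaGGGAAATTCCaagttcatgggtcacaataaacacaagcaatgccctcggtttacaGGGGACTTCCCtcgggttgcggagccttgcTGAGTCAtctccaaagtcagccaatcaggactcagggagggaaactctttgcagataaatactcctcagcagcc

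Cxcl2, Cxcl3 and Cxcl1 held the same letters, GGGAATTTCC, at 97 to 88, 73 to 64 and 71 to 62 bases before the start, and in each the match overlapped its own match on the other strand by all but 1 base. Among all 32851 RefSeq windows of 300 bases, searched on both strands, 0.0883% held GGGAATTTCC and 8.46% held any form of the NF-kB motif. Cxcl10 had GGGAAATTCC at 159 to 150 bases and a second stretch at 104 to 95 bases, GGGGACTTCC, which overlapped a further match starting 1 base later. It also had the ISRE form GAAAGTGAAA at 213 to 204 bases, where 3.44% of windows held an ISRE, and TGAGTCA at 74 to 68 bases, where 7.81% held an AP-1 site. The windows of Cxcl2, Cxcl3 and Cxcl1 held neither of these. Windows of Pf4, Ppbp, Cxcl9 and Cxcl15 were searched too and are not printed. They held no NF-kB motif and no ISRE, and those of Ppbp and Cxcl9 held an AP-1 site. These matches describe letters in the window and show no binding.

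**Figure D1:**
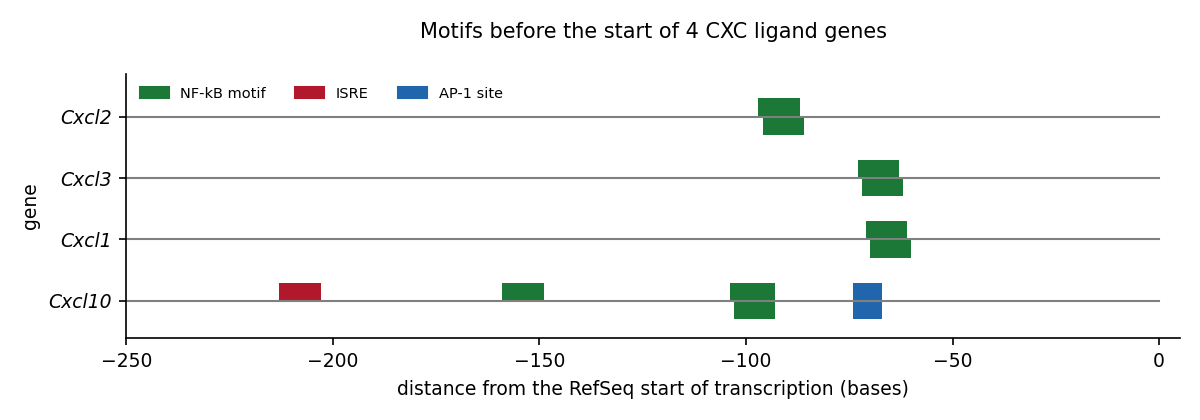
Motifs before the start of Cxcl2, Cxcl3, Cxcl1 and Cxcl10, by distance in bases from the RefSeq start of transcription. Boxes above a line are matches on the gene's strand and boxes below it are matches on the other strand. The NF-kB motif lies within 104 bases of the start in all 4 genes, and the ISRE and the AP-1 site appear in Cxcl10 alone among the 4.

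The deposited values were log2 levels normalised by RMA, with array medians of 6.11 to 6.19. They carry no detection call. Genes with a mean of at least 5.12, the 25th percentile, were tested, 9944 in all. Satellite cell genes were high on every array: Pax7 lay between 9.87 and 10.52, and Myf5 between 10.99 and 11.44. The living arrays differed from each other in genes of other cells. The summed level of 10 endothelial markers was 10.02 on living 1 and 9.24 on living 2, against 10.55 to 10.58 at D2PM and 10.56 to 11.13 at D4PM (log2 of the sum of linear values). In such bulk samples, fewer cells of a type and less RNA per cell cannot be told apart.

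Cxcl2, Cxcl3 and Cxcl5 were high in living cells and lower on all 5 post-mortem arrays. Cxcl2, the mouse MIP-2, was at 9.56 and 10.01 in living cells, at 6.48 and 6.39 in D2PM cells and at 7.04, 6.97 and 6.0 in D4PM cells. Every post-mortem array was below both living arrays, by at least 2.52 on the log2 scale. The mean of the post-mortem groups was 9.38-fold lower than the living mean, with 10.2-fold at D2PM and 8.65-fold at D4PM. The order was living, D4PM, D2PM, and the D4PM and D2PM arrays overlapped because D4PM 3 was the lowest of all while D4PM 1 and 2 were above both D2PM arrays.

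Cxcl3, which lies in the same group of genes and acts through the same receptor, was at 8.82 and 9.27 in living cells, at 5.98 and 5.59 in D2PM cells and at 5.92, 5.91 and 5.54 in D4PM cells. The smallest gap between a living and a post-mortem array was 2.85. It was 9.59-fold lower at D2PM and 9.55-fold lower at D4PM than in living cells. D4PM 3 was again the lowest array, and the post-mortem days, whose means were nearly equal, overlapped.

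Cxcl5, the chemokine once named LIX, was at 7.71 and 8.16 in living cells, at 4.48 and 4.69 in D2PM cells and at 3.93, 4.53 and 4.18 in D4PM cells. All 5 post-mortem values were below the level of 5.12 required of a gene's mean, so Cxcl5 was tested only because of its living arrays. The smallest gap between a living and a post-mortem array was 3.02. Levels this low are compressed by RMA, so neither the RNA left nor an exact fold can be read from them, and the post-mortem days were not put in order.

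Cxcl10, also known as IP-10, ran the other way. Its level was 8.34 and 8.36 in living cells, 11.43 and 11.51 in D2PM cells and 12.34, 12.24 and 12.17 in D4PM cells. The 3 groups did not overlap, and the order was D4PM, D2PM, living. Cxcl10 was 8.69-fold higher at D2PM and 15-fold higher at D4PM than in living cells, and the smallest gap between a living and a post-mortem array was 3.07.

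**Figure D2:**
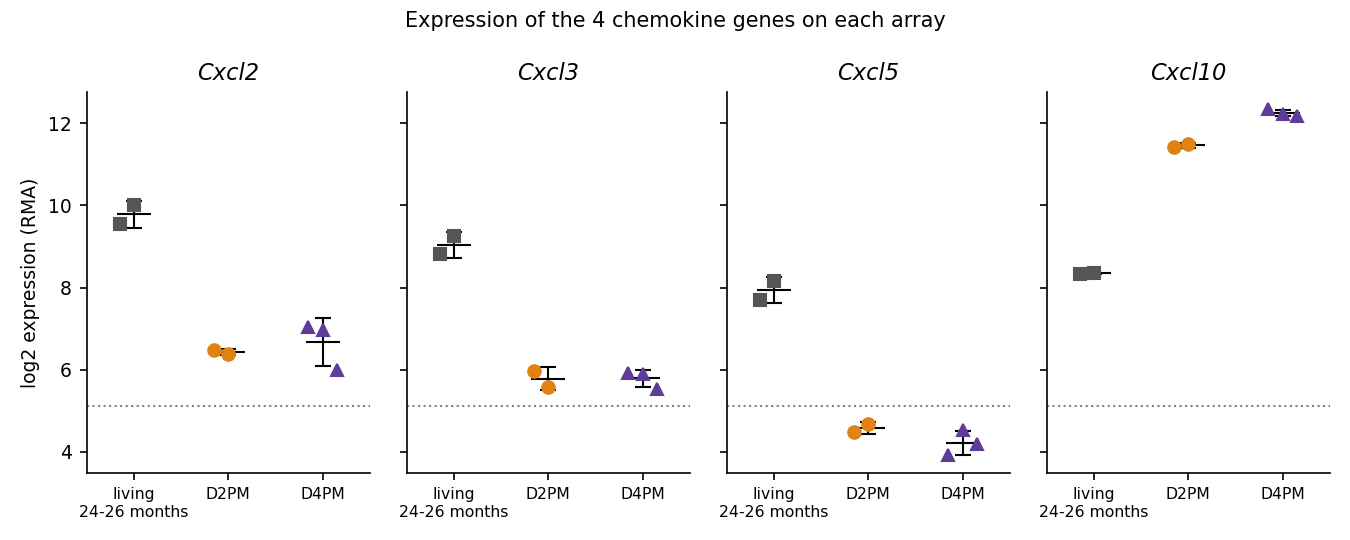
Log2 expression (RMA) of Cxcl2, Cxcl3, Cxcl5 and Cxcl10 on each of the 7 arrays, by group. Points are arrays, the horizontal bar and error bar are the mean and SD of the group (n = 2, 2 and 3), and the dotted line is the mean level of 5.12 required for testing; Cxcl5 lies below that line on all post-mortem arrays, and Cxcl10 lies above its living arrays on all 5.

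The group means summarise these values. Cxcl2 was 9.78 ± 0.32 (SD, n = 2) in living cells, 6.44 ± 0.07 (n = 2) at D2PM and 6.67 ± 0.58 (n = 3) at D4PM. Cxcl3 was 9.05 ± 0.31, 5.78 ± 0.27 and 5.79 ± 0.21, and Cxcl5 was 7.94 ± 0.32, 4.58 ± 0.15 and 4.21 ± 0.30, in the same order. Cxcl10 had the narrowest groups, 8.35 ± 0.01, 11.47 ± 0.06 and 12.25 ± 0.08. That the post-mortem and living arrays of all 4 did not overlap followed from how they were chosen, and 46.0% of the 9944 genes also did not overlap (23.2% lower and 22.8% higher after death).

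The members that were lower after death also shared the small difference between the living arrays. Living 2 was above living 1 by 0.45 for Cxcl2, 0.44 for Cxcl3 and 0.45 for Cxcl5, whereas for Cxcl10 it was above by 0.02. Over all genes tested the median of this difference was 0.01, and 95% of genes lay between -0.57 and 0.53. When each of the 7 arrays was left out, the post-mortem difference was between -3.46 and -3.00 for Cxcl2, between -3.48 and -3.04 for Cxcl3 and between 3.49 and 3.53 for Cxcl10. For Cxcl5 it was between -3.62 and -3.47 without each post-mortem array, and without a living array its mean missed the level required for testing.

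Between the post-mortem days, only Cxcl10 of the 4 genes passed the test. It rose by 0.79 log2 from D2PM to D4PM (SE 0.12, 95% interval 0.52 to 1.05), which is 1.72-fold, with an adjusted p of 0.0347 in limma, and all 3 D4PM arrays were above both D2PM arrays. It ranked 11 of 9944 genes by p. Across all genes tested, 0.191% were called between the days (0.161% higher and 0.0302% lower at D4PM) and 7.76% had an unadjusted p under 0.05. The arrays of the days did not overlap in 25.3% of genes, with D4PM above in 9.69% and below in 15.6%. Over 18 alternatives the rise was 0.74 to 0.83, but several of these, such as another filter or leaving out a living array, cannot change the estimate. The call was lost when any 1 of the 7 arrays was left out (adjusted p 0.0523 to 0.138 without a D4PM array). Without a living or D2PM array, which leaves 1 array in that group, the adjusted p was larger than this range.

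The other members did not pass. Cxcl2 differed by 0.24 (95% interval -0.35 to 0.82, limma adjusted p = 0.787), an interval that includes a rise as large as that of Cxcl10. For Cxcl3 the difference was 0.0055 (95% interval -0.39 to 0.40, adjusted p = 0.991). For Cxcl5 the days differed by -0.37, but both lay wholly below the level required of a gene's mean, so no test is drawn from it. The median of all genes tested was -0.03 in this comparison.

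**Figure D3:**
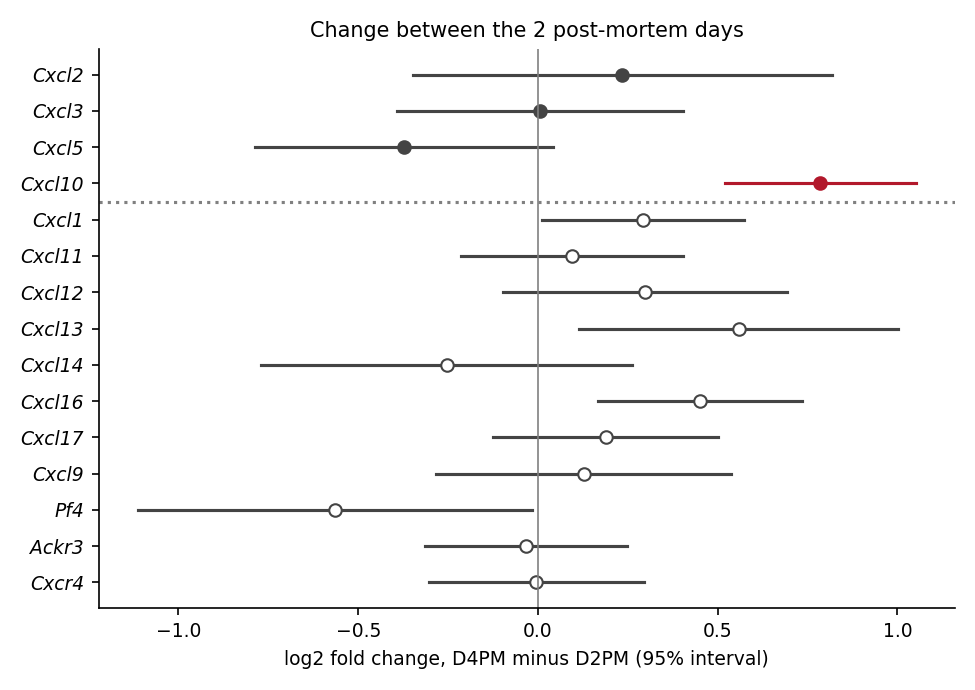
Log2 fold change from D2PM to D4PM with its 95% interval in limma, for the 4 members (filled points, above the dotted line; for Cxcl5 both days lie under the level required of a gene's mean, so its point and interval are not read) and for the other CXC ligands and receptors that were tested (open points). Cxcl10, in red, is the only gene shown with an adjusted p under 0.05, at 0.79 (0.52 to 1.05).

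The likeness of the members was described, not tested, because a shift shared by genes chosen to be lower after death, and opposite to that of Cxcl10, enters the measure. Likeness was taken as the root mean square difference between 2 genes over the 7 arrays, after each gene was centred on its own mean. The value was 0.23 log2 for Cxcl2 and Cxcl3, 0.33 for Cxcl3 and Cxcl5 and 0.47 for Cxcl2 and Cxcl5, and 3.09 to 3.28 for each of them and Cxcl10, an ordering that the choice of members fixed in advance. Among the 9944 genes, Cxcl2 and Cxcl3 were each other's nearest, and Cxcl3 was the nearest to Cxcl5. The nearest gene outside the family was for all 3 Timp1, an inhibitor of matrix metalloproteinases, at 0.48, 0.36 and 0.38. Its group means were 9.06 in living cells, 6.35 at D2PM and 5.6 at D4PM. Fam111a and Srxn1 followed for Cxcl2, Fam111a and A730049H05Rik for Cxcl3, and Osmr, the receptor for oncostatin M, with A730049H05Rik for Cxcl5.

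The nearest genes to Cxcl10 were Oasl1 (0.31), Ifit2 (0.37) and Ifit3 (0.37), which are interferon-induced genes, then the small non-coding RNA genes Vaultrc5 (0.37) and Rnu3a (0.39). Oasl1 had group means of 6.34, 8.77 and 9.77 in living, D2PM and D4PM cells. Ifit3 had 6.34, 8.97 and 10.57. These genes were picked by their likeness over the same arrays, so their differences are given without a test.

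Of the 11 other CXC ligands listed, 9 were tested, and in post-mortem against living cells 1 rose, 1 fell and 7 did not pass the test, beside 29.0% called among all genes (14.4% higher and 14.7% lower). Their median difference was -0.20, against 0.00 over all genes. Between D4PM and D2PM none of the 9 was called by limma after adjustment, and 4 of them had an unadjusted p under 0.05. Neither post-mortem call held when the mean of 10 endothelial markers was added to the fit as a covariate, an alternative chosen after the data were seen. That mean was 6.52 and 5.76 on the living arrays and 6.95 to 7.57 on the post-mortem arrays. Here and in each list below, the covariate thus differed together with death, and the 2 cannot be told apart by a lost call.

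Cxcl1, the keratinocyte chemokine KC, lies next to Cxcl2, shares the receptor Cxcr2 and has the same NF-kB letters before its start. Its level was 11.48 and 11.70 in living cells, 11.05 and 10.90 in D2PM cells and 11.27, 11.21 and 11.31 in D4PM cells. The post-mortem arrays were all below the living arrays, and the gene fell by 0.47 log2 (SE 0.12, limma adjusted p = 0.0115; 0.131 without living 2), where Cxcl2 and Cxcl3 differed by -3.23 and -3.26. The difference between genes was not tested, since Cxcl2 and Cxcl3 were chosen on this contrast. Probes of these related genes could share signal, which was not examined.

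Cxcl11, the third ligand of Cxcr3 beside Cxcl9 and Cxcl10 and a transcribed pseudogene in RefSeq, was the ligand called higher after death (limma adjusted p = 0.00469; 0.0821 without living 2), by 0.62. Its level was 5.09 and 4.98 in living cells, 5.55 and 5.67 in D2PM cells and 5.62, 5.92 and 5.57 in D4PM cells. The living arrays were below the level required of a gene's mean, so it was tested only because of its post-mortem arrays and the count of 1 that rose rests on that. Cxcl9, on the other side of Cxcl10 and induced by interferon gamma, was at 6.56 and 6.07, then 5.70 and 6.03, then 6.21, 6.04 and 5.73, and its difference of -0.38 did not pass the test (adjusted p = 0.118). The differences of the Cxcr3 ligands Cxcl10, Cxcl11 and Cxcl9 were thus 3.51, 0.62 and -0.38.

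The neighbours on the chromosome were compared with the members. In RefSeq order the first group runs Cxcl5, Ppbp, Pf4, Cxcl3, Cxcl15, Cxcl1 and Cxcl2, followed by Mthfd2l, an enzyme of folate metabolism in mitochondria. Pf4, platelet factor 4, differed by -0.52 (adjusted p = 0.114) and Mthfd2l by 0.03 (adjusted p = 0.923). Ppbp and Cxcl15 stayed below the level required for testing, between 3.29 and 3.71 and between 2.48 and 2.92. Around Cxcl10, Art3 rose by 0.62 (adjusted p = 0.0379) and Nup54, a nuclear pore protein, differed by -0.21 (adjusted p = 0.207). Whether the call of Art3 holds with arrays left out or with the endothelial covariate was not examined.

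**Figure D4:**
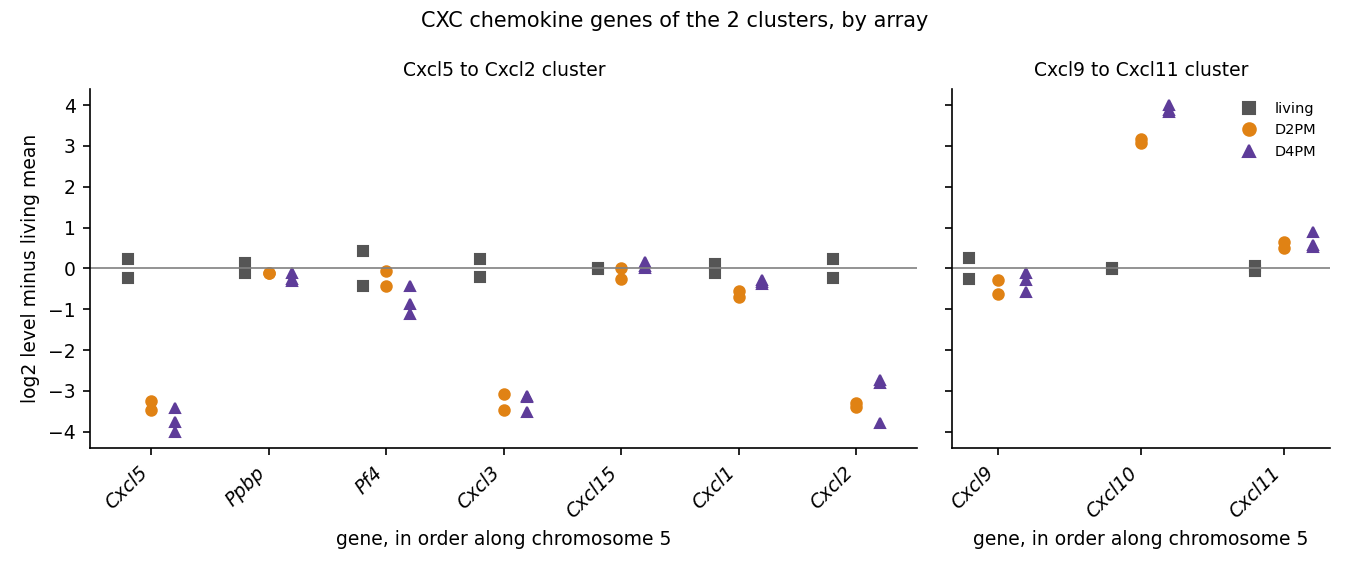
Log2 level minus the mean of the living arrays for the CXC genes of the 2 chromosome 5 groups, in RefSeq order, by array. Cxcl5, Cxcl3 and Cxcl2 sit at least 2.52 below both living arrays on all post-mortem arrays, Cxcl10 sits at least 3.07 above them, and Ppbp, Pf4, Cxcl15, Cxcl1, Cxcl9 and Cxcl11 lie between.

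The other 5 CXC ligands did not pass the test in either comparison. In post-mortem against living cells, Cxcl12, the stromal ligand of Cxcr4, differed by 0.40 (adjusted p = 0.0950), Cxcl13, which attracts B cells, by 0.37, Cxcl14 by -0.23, Cxcl16, a membrane-bound ligand, by -0.20 and Cxcl17 by 0.19. Between the days, Cxcl16 differed by 0.45 (95% interval 0.17 to 0.74, adjusted p = 0.396) and Cxcl13 by 0.56 (95% interval 0.11 to 1.00, adjusted p = 0.556).

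Receptors of the members had a low value or none. Of the 8 CXC and atypical receptors listed, Cxcr1, Cxcr2, Cxcr5 and Cxcr6 had no value in the table analysed here. Cxcr3, the receptor of Cxcl10, stayed between 4.81 and 5.15 on all arrays, and Ackr1, which binds many chemokines, between 4.52 and 4.80, both under the level required of a gene's mean. Cxcr4, the receptor of Cxcl12, was at 10.73 and 10.95 on the living arrays and between 11.09 and 11.34 after death. It rose by 0.37 (adjusted p = 0.0467), a call lost with median centring of the arrays, with a second quantile normalisation, with array weights, with no filter and when any array other than D4PM 3 was left out (adjusted p up to 0.257). Neither receptor tested was called between the days or had an unadjusted p under 0.05. Ackr3 differed by 0.14 (adjusted p = 0.391).

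Of 18 receptors and kinases upstream of NF-kB that were tested, 5 fell after death, none rose and 13 did not pass the test, with a median of -0.11. Among all genes 29.0% were called, 14.7% lower and 14.4% higher. The share called in either direction was thus near that of all genes, but all 5 calls of this list were falls. Il1r1, the receptor for IL-1, was at 10.47 and 10.55 in living cells, at 8.89 and 8.86 in D2PM cells and at 8.58, 8.65 and 8.32 in D4PM cells. It fell by 1.82 log2 (adjusted p = 4.49e-06). Tnfrsf1a and Tnfrsf1b, the receptors for TNF, fell by 1.02 (adjusted p = 0.00108) and 0.87 (adjusted p = 0.00161), the adaptor Myd88 fell by 0.63 and the kinase Ikbkb by 0.41. The falls of Il1r1 and Tnfrsf1a stayed called when any 1 array was left out, whereas those of Tnfrsf1b (adjusted p = 0.0555) and Ikbkb (0.336) were lost without living 2, that of Myd88 without living 1 (0.335), and those of Myd88 and Ikbkb also without some post-mortem arrays. With the endothelial covariate, only the call of Il1r1 among these 5 held. None of the 18 was called between the days by limma, and 1 had an unadjusted p under 0.05.

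Of 14 NF-kB subunits and feedback genes, 9 fell and none rose, with a median of -0.54, beside 14.7% lower and 14.4% higher among all genes. The subunits Rela and Nfkb2 fell by 0.76 (adjusted p = 0.00106) and 1.05 (adjusted p = 0.000132), Bcl3 by 1.26 and Birc3 by 0.99, and these 4 calls held when any 1 array was left out. The subunits Relb and Rel also fell. Among the other feedback genes, Tnip1 fell by 0.67 (adjusted p = 0.00146), Nfkbib by 0.49 (adjusted p = 0.0154) and Nfkbiz by 0.41 (adjusted p = 0.0435). Nfkbie differed by -0.21, Nfkbia by 0.02 and Tnfaip3 by 0.06 without passing. The call of Tnip1 held without each array, that of Relb was lost without living 2 (adjusted p = 0.0990), and those of Rel, Nfkbib and Nfkbiz were lost without either living array and without D2PM 1 (adjusted p up to 0.200), for Rel and Nfkbiz also without D2PM 2. All 9 calls were lost with the endothelial covariate. None of the 14 was called between the post-mortem days in limma, and 1 had an unadjusted p under 0.05: Tnfaip3, at a difference of 0.76 (adjusted p = 0.101).

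Of 11 other cytokine and adhesion genes induced through NF-kB, 2 rose and 3 fell after death, with a median of 0.01, beside 14.4% higher and 14.7% lower among all genes. Tnf, a cytokine that induces chemokines, was at 5.79 and 4.85 in living cells, at 7.83 and 7.77 in D2PM cells and at 9.55, 9.997 and 9.16 in D4PM cells. It rose by 3.36 (adjusted p = 7.85e-06), and Ccl7, a monocyte chemokine, by 0.71. The living 2 value of Tnf was below the level required of a gene's mean, so the size of its rise from living cells is not exact. Csf1, which sustains macrophages, fell by 1.43, and the adhesion genes Icam1 and Vcam1 by 0.68 and 0.73. The calls of Ccl7 and Vcam1 were lost without living 2 (adjusted p 0.0917 and 0.0555), and those of Tnf, Csf1 and Icam1 held whichever array was left out. With the endothelial covariate, only the call of Tnf among these 5 held. From D2PM to D4PM, Tnf rose by 1.77, Ccl2 by 1.14 and Ccl7 by 1.09 (adjusted p 0.0347, 0.0478 and 0.0347). As for Cxcl10, the call of Ccl2 was lost when any 1 of the 7 arrays was left out, and those of Tnf and Ccl7 when any array other than D4PM 3 was left out (adjusted p up to 0.930 for Tnf). All 3 calls between the days were lost with the covariate.

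Of 16 genes of interferon induction and signalling, 3 rose and 4 fell, with a median of -0.33, beside 14.4% higher and 14.7% lower among all genes. Ifnb1, which encodes interferon beta, was at 4.38 and 4.45 in living cells, at 7.59 and 7.13 in D2PM cells and at 8.68, 9.94 and 7.97 in D4PM cells. Its living arrays were below the level required of a gene's mean, so it was tested, and counted as 1 of the 3, only because of its post-mortem arrays, and no exact size of the rise is read. Ifih1, the sensor of double-stranded RNA known as MDA5, rose by 2.35 (adjusted p = 7.92e-06) and its adaptor Mavs by 0.51. Irf9 and Jak1, through which cells answer interferon, fell by 1.20 and 0.75, the receptor chain Ifnar2 by 0.38 and the kinase Tbk1 by 0.58. The calls of Jak1, Tbk1, Ifnar2 and Mavs were lost without living 2 (adjusted p 0.0505, 0.127, 0.152 and 0.123), those of Ifnar2 and Mavs also without living 1 and D2PM 1, and that of Ifnar2 also without D2PM 2, D4PM 1 or D4PM 2. Ifih1 and Irf9 kept their calls whichever array was left out and with the endothelial covariate, where the other 5 calls of this list were lost. Between the days, Ifnb1 differed by 1.5 (95% interval 0.60 to 2.40, adjusted p = 0.362) and Ifih1 by 0.78 (95% interval 0.37 to 1.19, adjusted p = 0.239), and neither passed the test. None of the 16 was called between the days by limma, and 5 had an unadjusted p under 0.05.

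**Figure D5:**
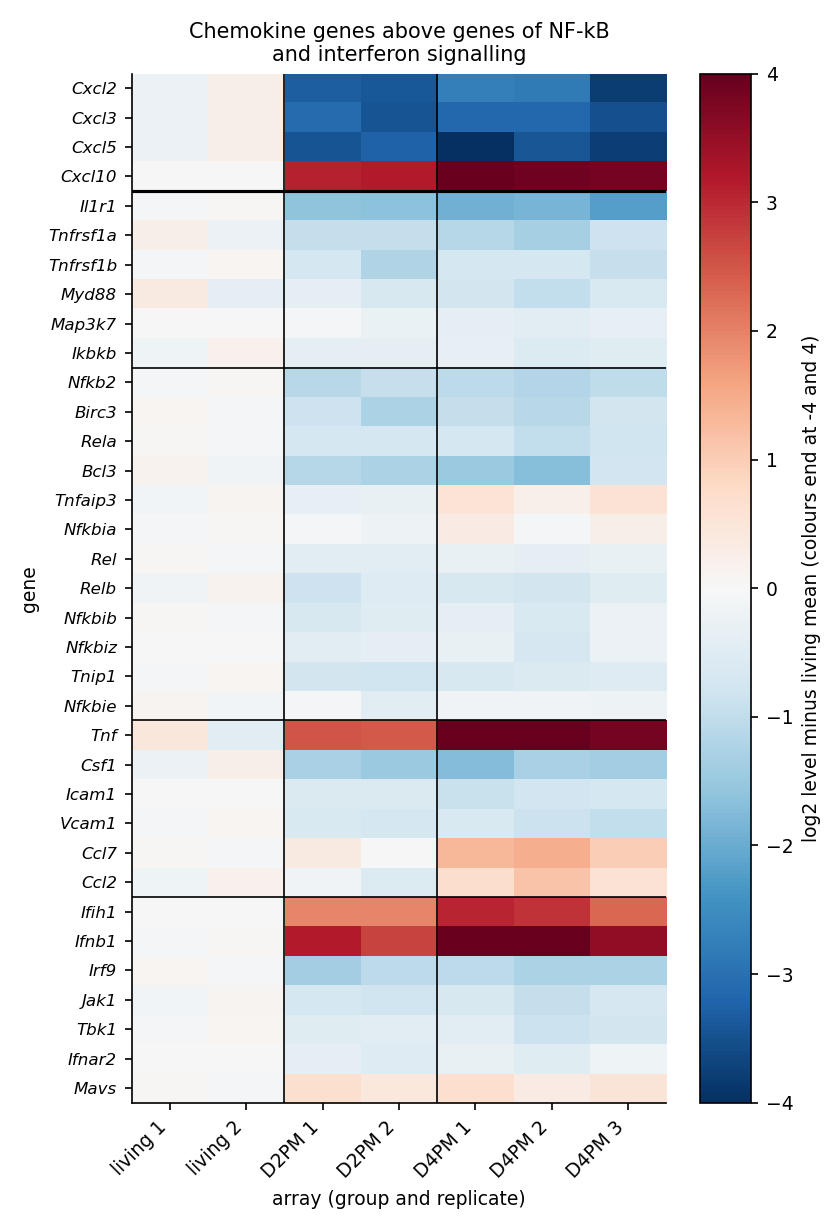
Log2 level minus the mean of the living arrays, by array, for the 4 members (top rows) and, under each line, the named genes upstream of NF-kB, of NF-kB itself, of cytokines and adhesion, and of interferon. Colours run from blue (-4) to red (4) and end there; all 5 post-mortem arrays lie below the living mean for Il1r1, Rela, Nfkb2, Irf9, Jak1, Tbk1 and Ifnar2, and above it for Tnf, Ifih1, Ifnb1 and Mavs.

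Factors that bind AU-rich elements or shorten messengers were also listed, because chemokine messengers carry such elements. Of 18 tested, 6 fell and none rose, with a median of -0.25, beside 14.7% lower and 14.4% higher among all genes. Srsf1 fell by 0.77 (adjusted p = 0.00150), the deadenylase subunits Cnot1 and Cnot7 by 0.70 and 0.59, and Hnrnpd, known as AUF1, by 0.39. The calls of Cnot1, Cnot7 and Hnrnpd were lost without living 2 (adjusted p 0.0872, 0.0703 and 0.164), and that of Hnrnpd also without either D2PM array. With the endothelial covariate, none of the 4 calls named here held. Zfp36, or tristetraprolin, which promotes the decay of many chemokine messengers, differed by 0.20 and did not pass the test. Between the days none of the 18 was called by limma, and 0 had an unadjusted p under 0.05.

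Markers of other cells were set beside the members. Of 13 neutrophil markers, 8 were measured and 5 tested, and none was called by limma or had an unadjusted p under 0.05 in either comparison. Their summed level was 8.73 to 9.86 on the living arrays, 9.37 to 9.84 at D2PM and 8.2 to 10.21 at D4PM, so the groups overlapped. The part of neutrophils in the levels of the members was not tested. Of 13 macrophage and monocyte markers, 9 were measured and 5 tested, and Cd14 fell by 1.03 (adjusted p = 0.00345; 0.0688 without living 1). Their summed level was 8.88 to 9.38, 8.62 to 8.88 and 8.80 to 9.21.

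Endothelial markers did move in the direction of Cxcl10. All 10 were tested and 8 rose after death, beside 14.4% higher among all genes, with a median of 0.94. Between the days all 10 had differences above 0, where the median of all genes was -0.03, none of them called or with an unadjusted p under 0.05. These markers share the same arrays, so that count of signs is not a test. Of the markers named, Pecam1, Flt1, Egfl7 and Tie1 lost their call without living 2 (adjusted p 0.140, 0.0803, 0.134 and 0.175) and Tie1 also without living 1 or either D2PM array, while Cdh5 kept it. Living 1 was higher in these markers than living 2, for example 6.62 against 5.67 for Pecam1. With the mean of the 10 markers as a covariate, Cxcl10 differed by 3.42 between post-mortem and living cells and by 0.76 between the days (adjusted p = 0.0888), so the call between the days was lost. Over all genes, 149 were called after death with the covariate, against 2887 without it. The covariate differed together with death and used a residual degree of freedom, and the part of endothelial cells in the lost calls was not tested. Under the same covariate Cxcl5 differed by -3.10 between post-mortem and living cells.

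The remaining marker lists had fewer calls than the endothelial list. Of 6 fibroadipogenic progenitor markers measured, 5 were tested and none was called by limma in either comparison (1 had an unadjusted p under 0.05 after death and 2 between the days), with summed levels of 12.19 to 12.61, 12.47 to 12.60 and 12.24 to 12.37. None of the 4 smooth muscle and pericyte markers tested was called by limma, with 2 at an unadjusted p under 0.05 after death and 0 between the days. Their summed level was 10.79 to 10.97 in living cells, 11.245 to 11.32 at D2PM and 11.08 to 11.34 at D4PM. As for the endothelial list, every post-mortem array was above both living arrays, and all 4 differences after death were above 0. The 4 lymphocyte and NK cell markers measured of 9, Cxcr3 among them, were all under the level required for testing, and their summed level was 6.40 to 6.56, 6.58 to 6.65 and 6.51 to 6.74. Of 10 satellite cell markers, Heyl rose by 0.81, Calcr by 0.55 and Vcam1 fell by 0.73 after death, all 3 calls lost without living 2 (adjusted p 0.0576, 0.165 and 0.0555).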

How the data were processed

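Sorted satellite cells were measured on 7 Mouse Gene 1.0 ST arrays. The authors corrected the background, normalised and summarised the probes with RMA and deposited the result on the log2 scale; limma is the other tool in the submitters' processing notes. They also removed probes that were not expressed or did not vary, and the 18675 probe sets left had an SD of at least 0.0914 over the 7 arrays, so percentages of genes called refer to genes that vary. RMA fits all arrays to one distribution and compresses low levels. The number of arrays limits the precision.

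Of 14480 probe sets with a single gene in the platform annotation, 14425 matched RefSeq (GRCm38.p6) through Entrez identifiers. The probe set with the highest mean stood for its gene, and genes with a mean of at least 5.12 were kept.

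Differences were tested with limma 3.58.1 in R 4.3.3 (1 fit of 3 group means to all arrays, no trend in the prior, 4 residual degrees of freedom). P-values were adjusted by Benjamini-Hochberg over all 9944 genes tested, with a threshold of 0.05. Post mortem means the average of the D2PM and D4PM means. The fit was tested on simulated data. The members and the gene lists were chosen with earlier results of these data known. Genes named were the members, all measured CXC ligands and receptors, up to 4 genes of each other list with the largest moderated statistic after death and up to 2 between the days, and the 5 nearest to each member. Where a list had 5 or fewer called genes, these were named after their values were seen, as were the other called genes and the inhibitors of the NF-kB list, the neighbours on the chromosome, Pax7 and Myf5.

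The alternatives tried were another normalisation (quantile again, or median centring), another filter (none, or the 50th percentile), averaged probe sets, a prior that is robust with a trend, weighting of arrays, a replicate block, the methods' t-test, a fit without living arrays, leaving out each array and, added after the data were seen, an endothelial covariate. Arrays of young cells were not analysed here.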

Additional observations from a re-analysis of the deposited data

Results flagged for a closer look

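Differences from living cells were compared between the post-mortem days in the same limma fit, and 4 genes described above differed between D4PM and D2PM. Cxcl10 was 3.12 above living cells at D2PM and 3.90 above at D4PM, and the days differed by 0.79 on the log2 scale (adjusted p = 0.0347). All 3 D4PM arrays were above both D2PM arrays, as in 9.69% of all genes tested. Tnf was 2.48 and 4.25 above living cells, sizes that are not exact because living 2 was below the level required of a gene's mean. Its days differed by 1.77 (adjusted p = 0.0347). Ccl7 was 0.17 and 1.26 above, a difference of 1.09 (adjusted p = 0.0347). Ccl2 was -0.34 and 0.80 from living cells, a difference of 1.14 (adjusted p = 0.0478). Both days share the living arrays, so each difference is that between D4PM and D2PM. All 4 calls were lost with the methods' t-test, with the post-mortem arrays alone and with the endothelial covariate. Each was also lost when some arrays were left out, as given above. Groups of 2 or 3 arrays were not tested for single arrays that stand apart.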

How the results depend on the processing

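The direction of Cxcl2 between the days held under every alternative, without passing the test in any, but several alternatives cannot change it, as for Cxcl10. That of Cxcl5 is not read, since both days lay below the filter, and that of the members after death was fixed by their choice. From D2PM to D4PM, Cxcl3, at 0.0055, was -0.025 after a second quantile normalisation, -0.0108 with median centring and -0.0312 with array weights, and -0.19 to 0.20 when each array was left out. The rise of Cxcl10 was past the threshold in 8 of 18 alternatives, among them the replicate block, whose limit is given below. It was 0.79 without passing in the methods' t-test (adjusted p = 0.413) and with the post-mortem arrays alone (adjusted p = 0.158), 0.76 with the endothelial covariate (adjusted p = 0.0888) and 0.74 to 0.83 when each array was left out. The 19 genes called between the days were 0 with the methods' t-test (692 at an unadjusted p under 0.05), 2 with the post-mortem arrays alone and 2 with the endothelial covariate. Leaving out each array gave 0 to 18: 0 without either D2PM array, 2 without either living array, D4PM 1 or D4PM 2, and 18 without D4PM 3.

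With the replicate block, 54 genes were called between the days, among them all 19, and Cxcl10 rose by 0.82 (adjusted p = 0.0225). Only D4PM has a replicate 3, so the block fits D4PM 3 exactly and the rise equals that without D4PM 3. Leaving that array out gave an adjusted p of 0.0523 in limma, so the block is not a separate check with all arrays. Same-numbered arrays shared only a number, with correlations of their deviations of -0.08 to 0.05.

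Between post-mortem and living cells, Cxcl10 differed by 3.59 in the methods' t-test, which averages the 5 post-mortem arrays, and by 3.42 with the endothelial covariate, and Cxcl5 by -3.10 with that covariate. The 2887 genes called were 1719 with the methods' t-test, 149 with the covariate and 851 to 2816 when each array was left out, lowest without living 2. Of the other CXC ligands, 2 were called in the main setting, 1 with a 50th percentile filter, 1 with the methods' t-test, 0 with the covariate and 0 to 3 when each array was left out, 0 without living 2. Pecam1, itself one of the covariate's genes, was -0.0376 with the covariate. Of 48 named genes called after death, 26 were no longer called without living 2, and with the covariate 6 were still called, namely Il1r1, Tnf, Ifih1, Irf9, Fosl1 and Atf3. Cxcl5 was not tested with a 50th percentile filter, without either living array or in the fit of post-mortem arrays alone, since its mean then missed the filter. The cause of these changes was not tested.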

Other observations

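Immediate early genes are switched on within minutes of stress or dissociation. Of 22 tested, 13 rose and 2 fell against living cells, with a median of 0.55, beside 14.4% higher and 14.7% lower among all genes. Atf3, a stress-induced repressor, rose by 1.51 (limma adjusted p = 2.75e-05), the AP-1 subunit Jun by 1.33 and Ier2 by 1.32. Fosl1, another AP-1 subunit, fell by 1.51 (adjusted p = 1.02e-05), and Myc by 0.56, a call lost without living 2 (adjusted p = 0.065). Of these 5, Atf3 and Fosl1 were still called with the endothelial covariate. Between the days 21 of the 22 differences were above 0, where the median of all genes was -0.03. None was called by limma after adjustment, with 3 at an unadjusted p under 0.05. Genes measured on the same arrays are not independent, so the count of signs is not a test. Fosb, for example, differed by 0.32 (95% interval 0.02 to 0.63, adjusted p = 0.610). The part of sorting or of dissociation in these levels was not tested.

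Chemokines are held at the cell surface by heparan sulphate. Of 10 genes for its synthesis, core proteins and shedding, 2 fell after death, none rose and 8 did not pass the test, with a median of -0.12. Among all genes 29.0% were called, 14.7% lower and 14.4% higher. The share called in either direction was thus not above that of all genes, but both calls of this list were falls. Neither call held with the endothelial covariate. Ndst2, which sulphates the chains, fell by 1.00 (adjusted p = 0.000853) and Hspg2, the core protein perlecan, by 0.33 (adjusted p = 0.0472), a call lost when any array other than D4PM 2 was left out (adjusted p up to 0.179). The syndecans Sdc4 and Sdc2 differed by -0.37 and 0.32 without passing. None was called between the days by limma, and 1 had an unadjusted p under 0.05, Hs2st1, which differed by -0.32 (95% interval -0.60 to -0.04, adjusted p = 0.582).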
